A study of Mus musculus with 12 samples.

Results

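The 9 genes described here encode basement membrane proteins and parietal endoderm markers: Col4a1, Col4a2, Lama1, Lamb1, Lamc1, Nid1, Sparc, Pth1r and Plat. They were chosen by name, as the entries of the deposited table whose RefSeq identifier maps to these symbols. Each symbol had 1 entry, so they are 9 of the 19746 entries. The libraries are from C57BL/6 mouse cells, either wild type (WT) or Mettl3-KO (KO), and were made from embryonic stem cells (ESCs) or from embryoid bodies (EBs). Mettl3 is the catalytic subunit of the complex that places m6A on mRNA. ESCs were held in the naive state by LIF and the kinase inhibitors of the 2i recipe, in serum-free N2B27-based medium. EBs, aggregates in which ESCs differentiate, were grown without attachment in serum medium for a stated range of 8 to 21 days. The age of each EB sample, the deleted part of Mettl3 and the number of knockout lines are not given in the labels. RNA was taken before (0 h) and 4 and 8 h into treatment with actinomycin, a blocker of transcription. Each of the 12 combinations of genotype, cell type and time had 1 library, and the 3 times of a genotype in a cell type serve here as its 3 libraries.

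A basement membrane is the sheet of matrix on which epithelia rest. Laminin trimers and collagen IV trimers form its networks, nidogen links them, and Sparc binds collagen. In the mouse embryo, parietal endoderm cells secrete the thick basement membrane called Reichert's membrane. These cells are known for high output of laminin, collagen IV and Sparc, for the tissue-type plasminogen activator Plat, and for the parathyroid hormone receptor Pth1r. Visceral endoderm, the sister lineage, carries serum-type proteins such as Afp and Ttr. EBs can form both.

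The collagen IV pair is a textbook example of genes read from a shared start region in opposite directions, and the RefSeq promoter table (GRCm38.p6) shows the overlap. Its start of Col4a2 lies on the plus strand at position 11312805 of chromosome 8, and its start of Col4a1 on the minus strand at position 11312826. The stretch that both transcripts cover by these starts, chr8:11312805-11312826, is shown on the plus strand in lower case. The gene span given below for Col4a1 reaches further, to 11312889, so by that record the overlap is longer.

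Shared start of Col4a1 and Col4a2: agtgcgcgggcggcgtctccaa

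Since the genes moved together in EBs, their windows from 250 bases before to 50 after the start were searched on both strands for 5 motifs. The table holds 8 windows for 6 of the genes, while Lama1, Lamc1 and Plat have no entry in it. CCAAT was found in 5 of the 8 windows, those of Col4a1, Col4a2, Lamb1, Nid1 and 1 of Pth1r, against 37.4% of all 32851 windows. The GC box GGGCGG was found in 6 of the 8, against 35.7% of all. These windows are not independent: the only GC box of the Col4a1 window is a site in the shared 22 bases that the Col4a2 window holds too, and 2 of the 6 windows are alternative starts of Pth1r. AGATAA, a motif of GATA factors, ACAAT, the core bound by Sox factors, and TGANTCA, the AP-1 motif, were in 0 of the 8, against 11.2%, 31.02% and 7.81% of all windows. The match for 2 of these motifs is shown for 3 genes in the sequence upstream of annotated exons, read 5′ to 3′ on the gene's strand, with CCAAT or GGGCGG on either strand in capitals. Their places are chr9:110747146-110747395 (minus strand) for Pth1r, chr12:31265043-31265145 (plus) for Lamb1 and chr13:13437352-13437550 (plus) for Nid1.

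Pth1r: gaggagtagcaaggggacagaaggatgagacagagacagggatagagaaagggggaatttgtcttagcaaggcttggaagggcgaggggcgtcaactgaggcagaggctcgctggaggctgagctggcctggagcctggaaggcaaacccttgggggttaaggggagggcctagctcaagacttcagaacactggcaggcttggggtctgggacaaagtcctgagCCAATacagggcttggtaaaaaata
Lamb1: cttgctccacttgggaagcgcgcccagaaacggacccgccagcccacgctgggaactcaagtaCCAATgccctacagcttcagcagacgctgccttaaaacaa
Nid1: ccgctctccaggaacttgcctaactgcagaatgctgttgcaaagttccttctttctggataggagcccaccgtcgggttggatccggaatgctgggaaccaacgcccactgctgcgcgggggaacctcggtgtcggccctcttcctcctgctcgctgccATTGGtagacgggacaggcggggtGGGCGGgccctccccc

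Levels are the authors' normalized values per transcript, and 1 inferred read was worth 10.6 to 32.7 units. Column totals spanned 3.02-fold, from the WT EB library at 8 h to the KO ESC library at 8 h. Inferred reads ran from 208874 in the same WT EB library to 666805. As a background, 1425 genes of families that should be silent here, such as olfactory receptors and defensins, were above 0 in 6.81% to 9.61% of cases in ESC libraries; the WT EB share was 26.7% to 34.2% and the KO EB share 34.0% to 36.2%. The 99th percentile of their levels was 88.3, 96.8 and 123 in WT EBs at 0, 4 and 8 h, and 82.0, 79.9 and 78.8 in KO EBs. The targeted gene Mettl3 read 251, 64.8 and 113 in WT ESCs, 98.1, 65.4 and 41.8 in KO ESCs, 175, 86.0 and 77.4 in WT EBs, and 16.8, 40.7 and 83.9 in KO EBs. Its 3′ tags overlapped between genotypes at few inferred reads, and a tag outside the deleted part checks nothing.

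Across EBs, each of the 9 genes was lower in KO than in WT, and for each the 3 KO libraries lay below the 3 WT libraries. All 9 passed the test as lower, where 1.56% of the 12704 entries tested did, and 7.4% had KO libraries all below WT libraries. The genes were chosen with earlier results of these data known, so these counts are descriptions. Plat also passed the filter on mean level only through WT EBs. The median of the 9 differences was -3.85 on the log2 scale, against 0.09 for all entries. Differences are means over 0, 4 and 8 h on log2(level + 8.58) with limma's standard error (SE), and a gene is called when its Benjamini-Hochberg adjusted p over all tested entries is under 0.05. With 1 library per group, the error is the scatter of libraries around a line over time. EBs mix cell types, so fewer cells of a type and less RNA per cell cannot be told apart.

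**Figure D1:**
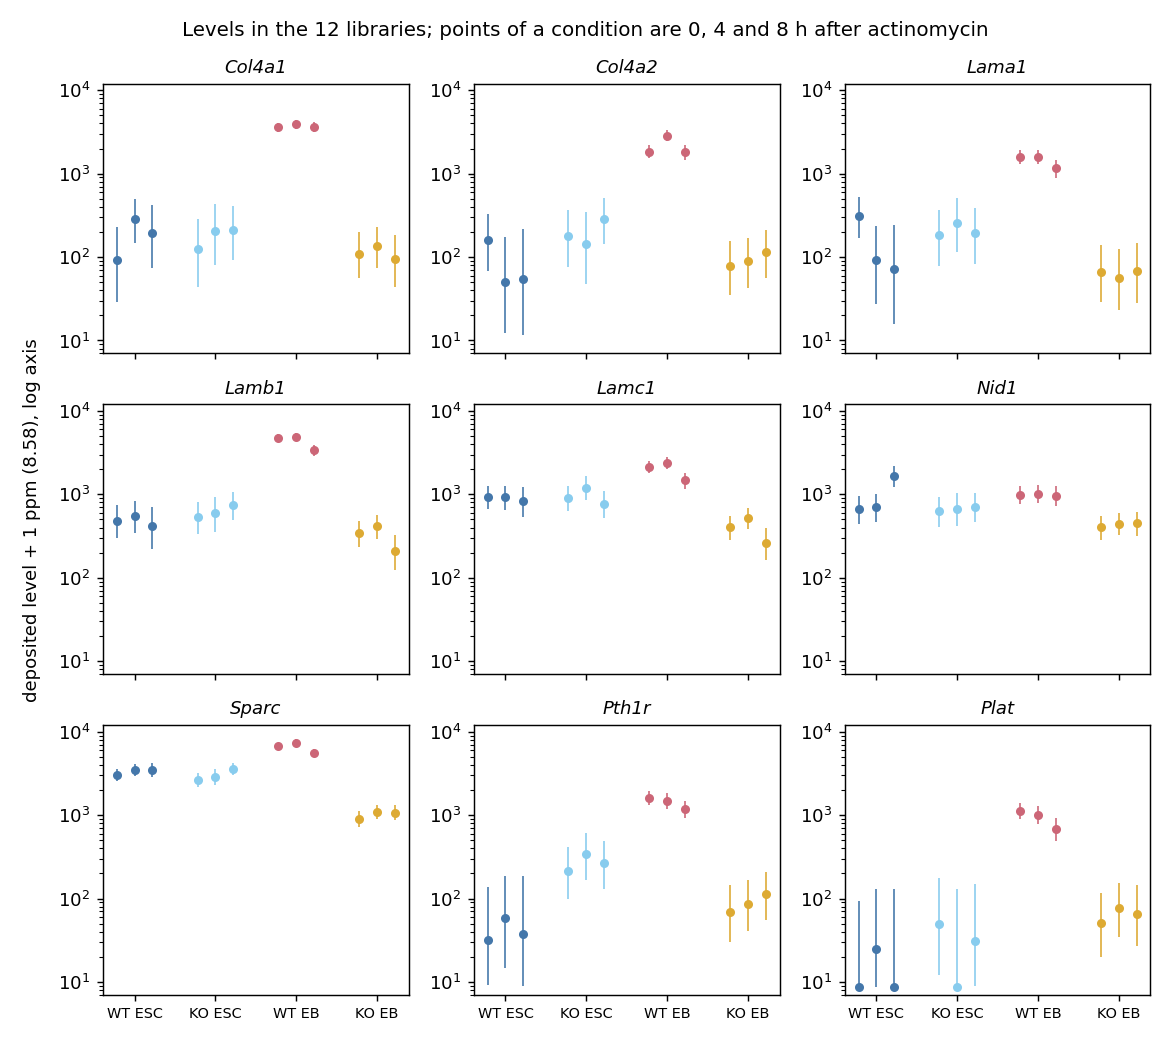
Deposited level plus 8.58 (log axis, in the units of the deposited table) of each gene in the 12 libraries, with 95% Poisson counting intervals; the 3 points of a condition are 0, 4 and 8 h after actinomycin. In every panel the 3 WT EB points lie above the 3 KO EB points, with the narrowest gap for Nid1.

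Col4a1 (NM_009931, 8:11198423-11312889, minus strand, GRCm38) encodes a chain of the most common collagen IV trimer. Its level in WT EBs was 3593, 3917 and 3583 at 0, 4 and 8 h, and in KO EBs it was 101, 128 and 86.3. In ESCs it was 83.1, 278 and 186 in WT and 116, 196 and 201 in KO. WT EBs thus stood far above the other 9 libraries, which overlapped between genotypes in ESCs. The EB difference was -5.04 ± 0.36 (SE; adjusted p = 1.04e-06, limma), or 32.9-fold lower in KO on this scale. The KO EB levels were 1.24, 1.60 and 1.10 times the 99th percentile of the silent families. An antisense gene, Gm15418, overlaps the last kilobase of Col4a1, and the sources used here do not say whether counting used strand.

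Col4a2 (NM_009932, 8:11312805-11449287, plus strand) encodes the other chain of that trimer. WT EBs gave 1826, 2854 and 1789, and KO EBs 69.0, 80.1 and 105. ESCs gave 152, 41.1 and 46.5 in WT and 170, 136 and 276 in KO. The library at 4 h was the highest of the WT EBs, and KO EB values lay around the silent-family percentile, at 0.84, 1.00 and 1.33 times it. Col4a2 differed by -4.52 ± 0.39 between EB genotypes (adjusted p = 5.68e-06, limma), 22.9-fold lower in KO.

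The 3 laminin chains make up the laminin trimer of early embryonic basement membranes. Lama1 (NM_008480, 17:67697127-67822645, plus strand) read 1595, 1577 and 1149 in WT EBs and 58.4, 48.0 and 59.4 in KO EBs. All 3 KO EB values lay below the 99th percentile of the silent families, so the KO level is near background and its size is not well measured. In ESCs Lama1 read 298, 82.7 and 62.8 in WT and 174, 249 and 186 in KO, with overlap. Its EB difference was -4.49 ± 0.36 (adjusted p = 3.16e-06, limma), 22.5-fold lower in KO, and -3.90 with a pseudocount of 5 ppm.

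Lamb1 (NM_008482, 12:31265146-31329644, plus strand) read 4737, 4840 and 3368 in WT EBs against 335, 404 and 200.3 in KO EBs. Its ESC levels were 476, 539 and 408 in WT and 527, 583 and 728 in KO. As deposited, KO EBs lay below every ESC library, by a narrow margin (404 against 408), and WT EBs above them. The KO order depends on scaling: the EB minus ESC difference in KO was -0.99 as deposited and -0.32 with equal column totals. The EB difference was -3.79 ± 0.26 (adjusted p = 1.04e-06, limma), 13.8-fold lower in KO.

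Lamc1 (NM_010683, 1:153218922-153332786, minus strand), the chain shared by most laminin trimers, read 2144, 2394 and 1465 in WT EBs and 395, 513 and 252 in KO EBs. ESC levels were 928, 922 and 823 in WT and 899.7, 1192 and 763 in KO. As for Lamb1, ESC libraries fell between the EB genotypes on the deposited scale. The EB minus ESC difference in KO was -1.31 on that scale and -0.64 with equal column totals. The difference was smaller than for the other laminin chains, -2.37 ± 0.28 (adjusted p = 7.06e-05, limma), 5.18-fold lower in KO, though the difference between chains was not tested.

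Nid1 (NM_010917, 13:13437602-13512275, plus strand), which links laminin to collagen IV, read 975, 1016 and 947 in WT EBs and 395, 437 and 442 in KO EBs. WT ESCs gave 652, 693 and 1634, where the library at 8 h stood apart, and KO ESCs 616, 664 and 700.1. Nid1 had the smallest EB difference of the 9, -1.19 ± 0.26 (adjusted p = 0.00802, limma), 2.28-fold lower in KO. That call was lost without the variance trend (adjusted p = 0.0833), with time as an additive term (0.0847), and without the 0 h or the 8 h EB library of either genotype (0.0777 to 0.196).

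Sparc (NM_009242, 11:55394159-55420080, minus strand), a secreted collagen-binding glycoprotein, read 6758, 7347 and 5596 in WT EBs and 889, 1085 and 1064 in KO EBs. Its ESC levels were 3036, 3458 and 3482 in WT and 2637, 2861 and 3565 in KO. KO EBs were therefore the lowest libraries for Sparc, below all 6 ESC libraries, yet at least 10.9 times the silent-family percentile. Sparc differed by -2.68 ± 0.18 between EB genotypes (adjusted p = 1.04e-06, limma), 6.42-fold lower in KO.

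Pth1r (NM_011199, 9:110722085-110747145, minus strand) encodes the receptor for parathyroid hormone and its related peptide, and signalling through it drives parietal endoderm formation in culture. It read 1599, 1477 and 1168 in WT EBs and 60.9, 77.6 and 104 in KO EBs. ESC levels were 23.0, 49.5 and 28.8 in WT and 205, 331 and 255 in KO. The order of the genotypes was thus opposite in the cell types, with no overlap in either. In EBs the difference was -4.01 ± 0.38 (adjusted p = 1.05e-05, limma), 16.1-fold lower in KO, and the KO values were 0.74, 0.97 and 1.32 times the silent-family percentile.

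Plat (NM_008872, 8:22757722-22782848, plus strand) encodes tissue-type plasminogen activator, the protease that turns plasminogen into plasmin. It read 1124, 1001 and 672 in WT EBs and 42.0, 68.6 and 57.2 in KO EBs. WT ESCs gave 0, 16.3 and 0, and KO ESCs 40.7, 0 and 22.5. A count of 0 allows a level of up to 68.9 and 98.1 in the WT ESC libraries at 0 and 8 h (3 inferred reads each) and of 98.2 in the KO ESC library at 4 h, and the WT EB levels lay far above these limits. The two-sided 95% Poisson intervals drawn in the plot of levels reach a little higher for these zeros, to 84.7, 121 and 121. All 3 KO EB values were below the silent-family percentile. Plat passed the filter on mean level only through WT EBs, the group where it is high. Its calls in comparisons that include WT EBs, and the counts that hold them, are therefore descriptions. Plat differed by -3.85 ± 0.71 between EB genotypes (adjusted p = 0.00261, limma), 14.5-fold lower in KO. Leaving out the 0 h or 8 h EB library of either genotype ended the call (adjusted p 0.0778 to 0.135).

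The direction was present in untreated EBs as well. At 0 h alone the differences, which carry no test, were -5.03 for Col4a1, -4.56 for Col4a2, -4.58 for Lama1, -3.79 for Lamb1, -2.42 for Lamc1, -1.28 for Nid1, -2.91 for Sparc, -4.53 for Pth1r and -4.48 for Plat. Setting equal column totals or median ratios moved the median of the 9 to -4.13 or -4.06, and that of all entries to -0.14 or -0.09.

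**Figure D2:**
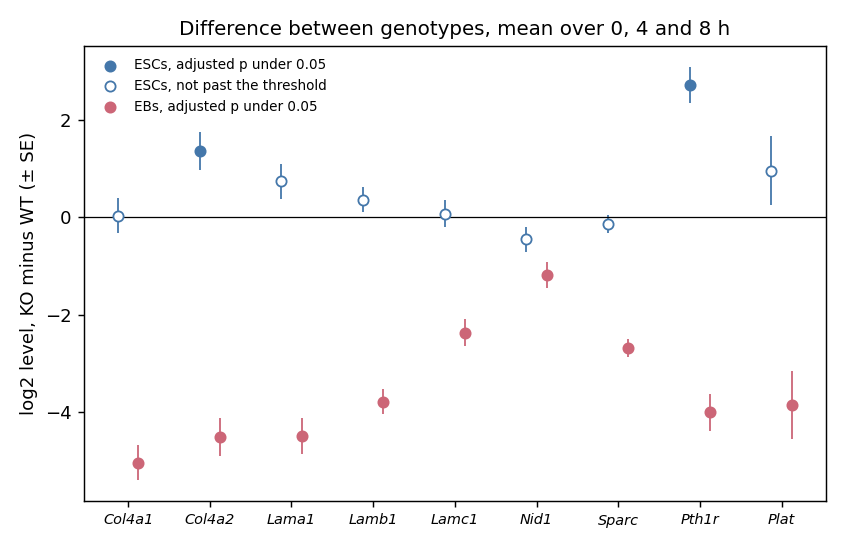
KO minus WT difference in log2(level + 8.58), mean over 0, 4 and 8 h, with SE, for each gene in EBs and ESCs; filled points have an adjusted p under 0.05. All 9 EB points are filled and below 0, from -5.04 for Col4a1 to -1.19 for Nid1, while in ESCs only Pth1r (2.71) and Col4a2 (1.35) are filled.

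In ESCs, 2 of the 9 genes were called between genotypes, both higher in KO, where 10.9% of all tested entries were called higher and 3.27% lower. Pth1r was higher by 2.71 ± 0.38 (adjusted p = 0.00029, limma), with similar differences of 2.76, 2.55 and 2.82 at 0, 4 and 8 h. It was the gene among the 9 whose ESC libraries did not overlap, as for 14.8% of all entries (KO above WT). The WT ESC levels of Pth1r correspond to about 1 to 2 inferred reads, so the size depends on the pseudocount (2.00 at 5 ppm) and has a wide counting interval: at 0 h the 95% intervals were 0.58 to 128 in WT and 89.5 to 402 in KO. Col4a2 was higher by 1.35 ± 0.39 (adjusted p = 0.0313, limma), but its genotypes overlapped. Its difference was 0.15 at 0 h and 2.37 at 8 h, and the call was lost under 4 other settings (adjusted p 0.0546 to 0.0852) and without the WT library at 4 h or the KO library at 0 or 8 h.

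The other 7 genes did not pass the test in ESCs. Their differences were 0.02 ± 0.36 for Col4a1, 0.73 ± 0.36 for Lama1, 0.36 ± 0.26 for Lamb1, 0.07 ± 0.28 for Lamc1, -0.45 ± 0.26 for Nid1, -0.15 ± 0.18 for Sparc and 0.95 ± 0.71 for Plat. Their adjusted p-values ran from 0.205 to 0.978. The median over the 9 was 0.36 against 0.18 for all entries.

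From ESCs to EBs in WT, 8 of the 9 genes rose, where 3.49% of all tested entries were called higher and 29.1% lower. For these 8 the 3 EB libraries lay above the 3 ESC libraries, as for 5.88% of all entries. Plat rose by 6.23 ± 0.71, Pth1r by 5.11 ± 0.38, Col4a2 by 4.80 ± 0.39 and Col4a1 by 4.42 ± 0.36. The sizes for Plat and Pth1r depend on the pseudocount, since their WT ESC levels were at most 2 inferred reads and below the silent-family percentile. With a pseudocount of 5 ppm the 4 rises were 4.32, 4.25, 4.24 and 4.15, all still called, so no order among them can be read. Lama1 rose by 3.51 ± 0.36 and Lamb1 by 3.15 ± 0.26, and the adjusted p-values of these 6 ran from 6.18e-07 to 1.66e-05 (limma). Lamc1 rose by 1.13 ± 0.28 (adjusted p = 0.00567), a call lost without the WT ESC library at 0 or 8 h (0.0666 and 0.0692), and Sparc by 0.97 ± 0.18 (adjusted p = 0.000802).

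Nid1 differed by 0.11 ± 0.26 between WT EBs and ESCs (adjusted p = 0.774, limma), with the high ESC library at 8 h in the mean. Its difference was 0.57 at 0 h, 0.55 at 4 h and -0.78 at 8 h. The scaling decided this gene's call: with equal column totals it was 1.02 (adjusted p = 0.0158) and with median ratios 0.79 (0.047). Over all entries the median change was -0.50 as deposited, 0.34 with equal totals and 0.13 with median ratios. The median over the 9 genes was 3.51, 4.39 and 4.18 on the same 3 scales.

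In KO, 0 of the 9 genes were called higher in EBs, which does not set them apart. Few entries were: of 12704 tested, 3066 were called in either direction, 2948 of these as lower. Between KO ESCs and KO EBs, 5 of the 9 genes were called lower, where 23.2% of all tested entries were called lower and the median of all entries was -0.61. They were Lama1 (-1.72 ± 0.36), Pth1r (-1.61 ± 0.38), Sparc (-1.56 ± 0.18), Lamc1 (-1.31 ± 0.28) and Lamb1 (-0.99 ± 0.26), with adjusted p from 0.000148 to 0.0158 (limma). Plat differed by 1.43 ± 0.71, Col4a1 by -0.64 ± 0.36, Col4a2 by -1.08 ± 0.39 and Nid1 by -0.63 ± 0.26, none past the threshold. For 7 of the 9, KO EB libraries lay below all KO ESC libraries, as for 36.8% of all entries; Col4a1 overlapped and Plat lay above. With equal totals or median ratios only Sparc was called, and without the variance trend 0 were (6 under an unadjusted p of 0.05, limma). Leaving out the KO EB library at 0 or 8 h likewise left 1 called gene. Without the KO ESC library at 0 or 8 h, Plat was called higher (2.89, adjusted p = 0.0475 and 0.0482) and Lamb1 lost its lower call (0.122 and 0.125), as it did with time as an additive term (0.0838).

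The difference between the 2 changes was tested directly. It was called for 8 of the 9 genes, each with a lower ESC-to-EB change in KO, where 1.35% of all entries were. Pth1r differed by -6.72 ± 0.53 (adjusted p = 5.31e-06, limma), since it was higher in KO ESCs and lower in KO EBs. The collagen IV chains differed by -5.06 ± 0.51 (Col4a1) and -5.87 ± 0.55 (Col4a2), and the laminin chains by -5.22 ± 0.51 (Lama1), -4.15 ± 0.37 (Lamb1) and -2.45 ± 0.39 (Lamc1). Sparc differed by -2.54 ± 0.26 and Plat by -4.80 ± 1.00 (adjusted p = 0.0156). With a pseudocount of 5 ppm the values were -5.56 for Pth1r, -5.10 for Col4a2, -4.46 for Lama1 and -3.65 for Plat, all still called. Nid1, at -0.74 ± 0.36, did not pass (adjusted p = 0.339). Lamc1 lost its call without the variance trend or the KO EB library at 0 or 8 h (adjusted p 0.0663 to 0.0959), and Plat with no filter on low values, without the variance trend and without any of 9 single libraries (0.0562 to 0.195).

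Genes that act with these proteins were counted from lists chosen with earlier results of these data known, so their counts are descriptions. Of other basement membrane components, 21 of 25 were tested in EBs, and 1 was higher and 0 lower in KO, where 7.66% and 1.56% of all entries were; their median was -0.33. The higher gene was Lama4, an alpha chain of vascular laminins, which read 1281, 380 and 265 in WT EBs and 3229.9, 918 and 1177 in KO EBs (1.57 ± 0.32, adjusted p = 0.00522, limma). Lama5, the alpha chain that follows Lama1 in many tissues, differed by 0.92 ± 0.36 (adjusted p = 0.148), and Tinagl1, a matricellular protein, by -1.94 ± 0.73 (0.129). The perlecan gene Hspg2 differed by 0.22 ± 0.21 and Nid2, the paralog of Nid1, by -0.16 ± 0.33, neither past the threshold. Of the 21 tested, 3 had an unadjusted p under 0.05 (limma). A called fall like that of the 9 was thus not seen among the other basement membrane genes, though their median lay below the 0.09 of all entries. The difference between the lists was not tested.

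Enzymes and chaperones of collagen synthesis gave 8 lower and 0 higher of 20 tested in KO EBs, with a median of -0.77. Of all entries, 1.56% were lower and 7.66% higher. Serpinh1, the collagen chaperone of the endoplasmic reticulum, read 18924, 18831 and 16769 in WT EBs and 2739, 3969.9 and 3297 in KO EBs (-2.46 ± 0.17, adjusted p = 1.04e-06, limma). P4ha1, the catalytic subunit of prolyl hydroxylase, differed by -2.19 ± 0.29, and its partner subunit P4hb by -0.84 ± 0.16. Loxl2, which crosslinks collagen IV, differed by -2.72 ± 0.59 (adjusted p = 0.00771). The 4 other called genes were the lysyl hydroxylases Plod1, Plod2 and Plod3 and the peroxidase Pxdn, which forms sulfilimine bonds in collagen IV. In WT, 5 of the 20 rose from ESCs to EBs and 4 fell, where 3.49% and 29.1% of all entries did, with Serpinh1 at 2.86 ± 0.17 and P4ha1 at 2.30 ± 0.29. In ESCs Serpinh1 was higher in KO, by 1.27 ± 0.17 (adjusted p = 0.000238).

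Of the matrix receptors, 9 were tested, and Itga6, an alpha chain of laminin-binding integrins, was higher in KO EBs (1.01 ± 0.25, adjusted p = 0.0202, limma), with 0 lower. That count of 1 in 9 is near the 7.66% of all entries called higher. In the plasminogen system 2 of 7 were lower, where 1.56% of all entries were: Anxa2, which binds plasminogen and tissue-type activator at the cell surface (-1.87 ± 0.32, adjusted p = 0.00176), and Plaur, the urokinase receptor (-1.13 ± 0.34, adjusted p = 0.0477). Among the partners of Pth1r 0 of 4 were called, with 1 under an unadjusted p of 0.05: Ramp2, a membrane protein that associates with the receptor, at -1.83 ± 0.60 (adjusted p = 0.0712). In ESCs Ramp2 was higher in KO, as Pth1r was, by 2.21 ± 0.60 (adjusted p = 0.0223). The Sparc family gave 0 of 6, and 0 at an unadjusted p under 0.05.

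**Figure D3:**
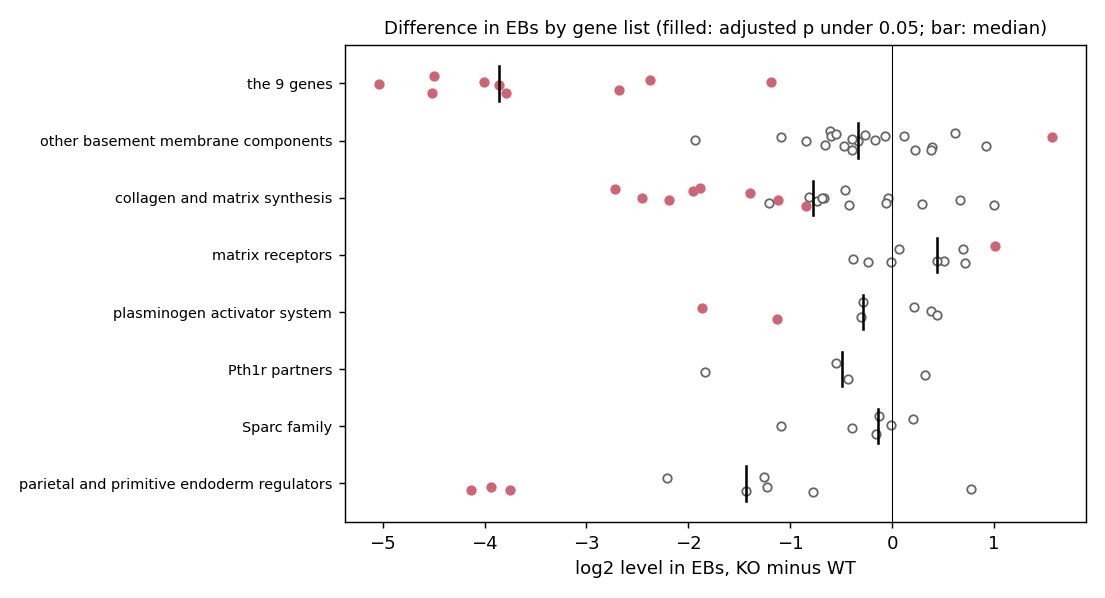
KO minus WT difference in log2(level + 8.58) in EBs (horizontal axis) for the 9 genes and for the tested genes of each list; each point is 1 gene, filled where the adjusted p is under 0.05, and the bar is the median. The 9 genes have a median of -3.85, against -0.77 for collagen and matrix synthesis and -0.33 for the other basement membrane components.

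Regulators and markers of parietal and primitive endoderm gave 3 lower and 0 higher of 9 tested in KO EBs, with a median of -1.43. Of all entries, 1.56% were lower and 7.66% higher. Cited1, a transcriptional coregulator, differed by -4.14 ± 0.37, Fst, the activin inhibitor follistatin, by -3.75 ± 0.37, and Dab2, an endocytic adaptor of extraembryonic endoderm, by -3.94 ± 0.57 (adjusted p = 0.000395, limma). Gata4, an endoderm transcription factor, read 395, 113 and 90.1 in WT EBs and 61.6, 53.3 and 47.7 in KO EBs, and its difference of -1.43 ± 0.53 did not pass (adjusted p = 0.119). Gata6, Sox7, Sox17, Foxa2 and Stra6 were below the filter on low levels. In WT, 7 of the 9 rose from ESCs to EBs, where 3.49% of all entries did.

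The label parietal endoderm was compared with 6 other markers of that lineage, of which Sox7 and Stra6 were below the filter. All 6 are also in the list just described, so their counts repeat part of it. Their summed level was 639 to 1331 in WT EBs, 293 to 470 in KO EBs and 53.0 to 310 in WT ESCs, and each was above 0 in both EB genotypes. In WT 3 of the 4 tested rose from ESCs to EBs, where 3.49% of all entries did. These were the thrombomodulin gene Thbd, Pdgfra and Krt19. Between EB genotypes 0 of the 4 were called, with 2 under an unadjusted p of 0.05. Markers of visceral endoderm moved with the 9 genes. In WT EBs 7 of 8 rose, where 3.49% of all entries did. In KO EBs 7 of 8 were lower, where 1.56% of all entries were. The WT EB libraries summed to 5587 to 8569 for these markers and the KO EB libraries to 365 to 460, with each marker above 0 in both. In KO, 0 of the 4 parietal markers were called between ESCs and EBs, with 2 under an unadjusted p of 0.05. Their median change was 1.73, against -0.61 for all entries and -1.08 for the 9 genes. For visceral markers it was 0.25, with 0 of 8 called. The difference of these changes was called lower for 1 of the 4 and 5 of the 8, against 1.35% of all entries. Markers of both lineages thus rose in WT EBs along with the 9 genes. In KO ESCs the summed level was 170 to 565 for the 6 parietal markers and 369 to 469 for the 8 visceral markers. These sums overlapped those of KO EBs and were already low, so the markers had little room to fall. The median of the 9 in KO was -0.43 with equal column totals. The KO medians of the markers and of the 9 therefore cannot be ranked. The part of either cell type in the result was not tested.

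ESC markers moved the other way: 4 of 5 (Nanog, Zfp42, Esrrb and Sox2, transcription factors of pluripotent cells, but not Pou5f1) were called higher in KO EBs, where 7.66% of all entries were. The median of the 5 was 1.89 against 0.09 for all entries. Their change from ESCs to EBs was called higher in KO for 3 of 5, against 1.5% of all entries. All 5 had a called fall over time in WT EBs, where 26.8% of all entries had a called slope in either direction. The KO minus WT slope in EBs was called higher for 2 of the 5, against 1.19% of all entries in either direction. Its median was 0.26 per h, against 0.08 for all entries. With equal column totals or median ratios, 0 of all entries had a called slope difference in EBs. The level difference is a mean over 0, 4 and 8 h, so slope differences enter it. The summed level of the 5 markers ran from 5665 to 21066 in WT EBs and from 16880 to 20930 in KO EBs, so the genotypes overlapped. Their part in the result for the 9 genes was not tested.

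Markers of other cells that make basement membrane were also read. The summed endothelial level spanned 709 to 982 for WT EBs and 875 to 1058 for KO EBs, with 0 of 6 tested called and 1 under an unadjusted p of 0.05. Fibroblast and feeder markers summed to 1058 to 1501 (WT EBs) and 509.8 to 739 (KO EBs). Of 5 tested, 1 was lower, where 1.56% of all entries were (Thy1, chosen for naming after its value was seen). Of the 5, 3 were under an unadjusted p of 0.05. Smooth muscle markers summed to 441 to 610 and 203 to 292, with 0 of 3 called and 1 under an unadjusted p of 0.05, and trophoblast giant cell markers to 93.6 to 144 and 74.8 to 143, with 0 of 1 called. Of the genes of these lists in the table, 0 were at 0 throughout in WT EBs and 1 in KO EBs, Prl3d1. The part of these cells in the result was not tested.

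After actinomycin, the 9 transcripts stayed high in WT EBs. As a share of the 0 h level, Col4a1 stood at 109% at 4 h and 99.7% at 8 h (95% counting interval 82.4% to 121%), Col4a2 at 156% and 98.0%, and Nid1 at 104% and 97.1%. Sparc stood at 109% and then 82.8%, with an interval of 71.6% to 95.7% at 8 h. The laminin chains were at 98.8% and 72.0% (Lama1), 102% and 71.1% (Lamb1) and 112% and 68.3% (Lamc1). Pth1r was at 92.4% and 73.1%, and Plat had the lowest shares, 89.1% and 59.8% (39.5% to 89.3% at 8 h).

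For comparison, the 3531 entries with a 0 h level of at least 429 had a median share of 63.5% at 4 h and 31.7% at 8 h, with quartiles of 20.1% and 43.6% at 8 h. All 9 genes lay above the median at both times, and at 8 h they stood between the 90.6th percentile (Plat) and the 98.6th (Col4a1). A common scaling factor moves every share in a library alike and leaves these places unchanged. The shares themselves depend on it: summed over the 9 genes, 81.0% (75.1% to 87.5%) was left at 8 h as deposited, 183% with equal column totals and 175% with median ratios. Absolute stability therefore cannot be read from these values, and with 1 library per time the shares carry no replicate error.

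**Figure D4:**
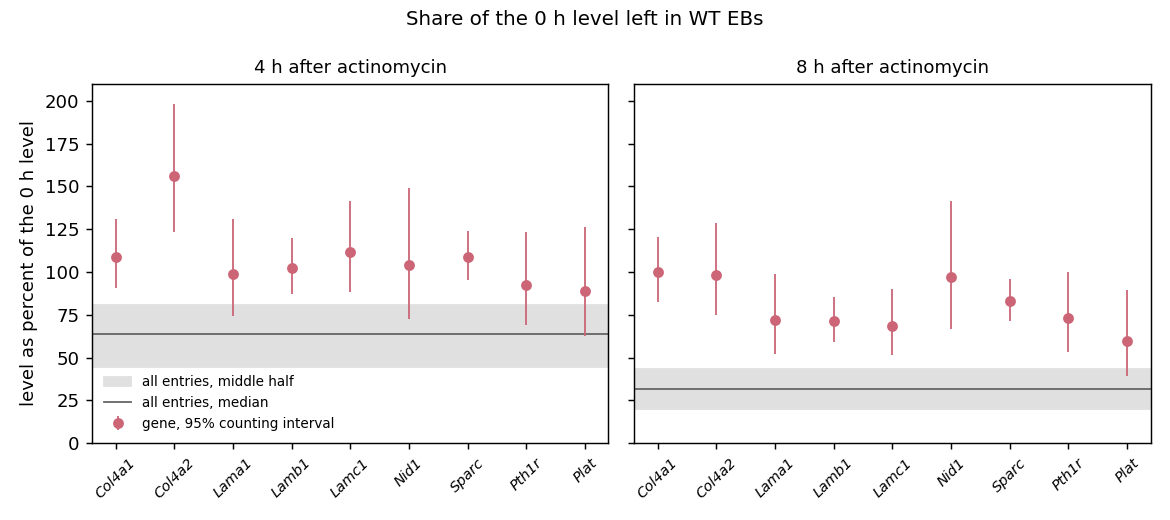
Level in WT EBs at 4 h (left) and 8 h (right) as a percent of the 0 h level, with 95% counting intervals; the grey line and band are the median and quartiles over the 3531 entries with a 0 h level of at least 429. All 9 genes lie above the line, which is at 63.5% and 31.7%.

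Slopes over the 3 times were tested in each condition. In WT EBs the 9 slopes ran from -0.09 to 0.00 log2 units per h with a median of -0.06, against -0.12 for all entries. Shallow slopes were not particular to the 9, but the lists were not matched to the 9 in level. The pseudocount pulls slopes of low genes toward 0, and the Sparc family summed to only 1050 to 1162 over 7 genes in WT EBs. Median slopes were -0.02 for other basement membrane components, -0.01 for the plasminogen system, 0.06 for the Sparc family and -0.06 for visceral endoderm markers. Of the lists, only matrix receptors (-0.15) and ESC markers (-0.54) had a steeper median than all entries. Of the 9 genes 0 had a called slope and 0 had an unadjusted p under 0.05 (limma), where 26.8% of all tested entries were called. In KO EBs 0 were called, and 0% of all entries. In KO ESCs 0 were called, where 0.0315% of all were, and 0 of the 9 had an unadjusted p under 0.05 in either KO condition. In WT ESCs 0 were called where 5.51% of all were, with 3 under an unadjusted p of 0.05: Lama1 (-0.26 ± 0.08 per h, adjusted p = 0.0641), Col4a2 (-0.19 ± 0.08, adjusted p = 0.214) and Nid1 (0.16 ± 0.06, adjusted p = 0.101).

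Between genotypes, 0 of the 9 slopes differed past the threshold. In EBs, where 1.19% of all entries were called, the differences ran from -0.03 to 0.14 per h, 0 had an unadjusted p under 0.05 and the smallest adjusted p was 0.634 (limma). Errors were 0.06 per h for Sparc and 0.22 per h for Plat, so moderate differences in decay were not detectable. In ESCs, where 0.0394% of all were called, Lama1 (0.27 ± 0.11, adjusted p = 0.408) and Col4a2 (0.28 ± 0.12, adjusted p = 0.454) were under an unadjusted p of 0.05. KO EBs held few reads for most of the 9. Sparc, the best measured, stood at 122% (90.4% to 165%) at 4 h and 120% (87.8% to 163%) at 8 h there. In ESCs, Sparc stood at 115% of its 0 h level at 8 h in WT and 135% in KO.

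The 9 profiles over the 12 libraries were alike to different degrees. Pearson's r with the mean of the other 8, over log2 levels scaled per gene, was 0.98 for Lamb1, 0.95 for Col4a1, 0.94 for Lama1, 0.92 for Col4a2, 0.87 for Lamc1, 0.85 for Sparc, 0.84 for Pth1r, 0.71 for Plat and 0.54 for Nid1. The 8 other tested genes most like the mean of the 9 were Cited1 (r = 0.98), Amn (0.96), Spink1 (0.96), Amot (0.96), Lgmn (0.94), Plac8 (0.93), Cotl1 (0.93) and Afp (0.93). These are descriptions over 12 libraries that fall into 4 conditions and share depth and scaling. Amn, a component of the vitamin B12 receptor of visceral endoderm, read 739, 599 and 547 in WT EBs and 59.0, 95.5 and 62.0 in KO EBs. Afp, the fetal serum protein made by visceral endoderm, read 2449.5, 1879 and 1643.5 against 55.4, 68.0 and 58.9, and Cited1 1254, 1562 and 792 against 48.2, 67.8 and 58.9.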

How the data were processed

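Poly(A) 3′ ends were sequenced from 12 libraries, 1 per genotype, cell type and time. Groups come from the sample titles. Fragmented RNA was enriched for its poly(A) ends and copied into cDNA with strand kept, per the labels' protocols. Among the tools are Bowtie, Bowtie2 2.1.0 and CASAVA 1.8.2, with build mm10, per the submitters' processing notes. The authors deposited a normalized signal per RefSeq transcript, and its counting and scaling are not given in the sources used here. All 12 columns matched 1 title each. Of 19746 entries, 38 identical duplicates were dropped.

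At least 99.8% of low values were whole multiples (within 0.1) of a library's step. Taking 50 steps as 1 read, an inference, gives 208874 to 666805 reads per library, used for exact 95% Poisson intervals on levels and binomial-based intervals on shares. These cover counting error only, since there are no molecular identifiers.

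limma 3.58.1 (R 4.3.3) was fitted to log2(level + 8.58), 8.58 being 1 ppm of the mean column total, which understates changes of low genes. Entries with a mean over all libraries of at least 42.9 (5 ppm) were tested, 12704 in all, and all 9 genes passed. Plat read at most 40.7 in ESCs and 42.0 to 68.6 in KO EBs, so it passed only through WT EBs. Some low genes of the lists may have passed in the same way. The 8 coefficients are a level and a line over hours per condition, with 4 residual degrees of freedom and a trended prior worth 11.1. The spread is the scatter around the lines, which may be technical, since the labels name no separate cultures. Adjusted p-values are Benjamini-Hochberg with a threshold of 0.05. Named genes are the 9, up to 4 per list by smallest adjusted p in the EB comparison with those defining for the list, and the 8 most correlated. The genes and lists were chosen with earlier results of these data known. Alternatives changed scaling, pseudocount, filter, variance trend and time terms, and left out single libraries.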

Additional observations from a re-analysis of the deposited data

Results flagged for a closer look

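The change from ESCs to EBs differed between genotypes, by a test of that difference (limma, log2, KO minus WT), for 8 of the 9 genes: Col4a1 (-5.06), Col4a2 (-5.87), Lama1 (-5.22), Lamb1 (-4.15), Lamc1 (-2.45), Sparc (-2.54), Pth1r (-6.72) and Plat (-4.80). The call is least firm for Plat, which was lost when any of 9 single libraries was left out, and for Lamc1. Values in KO EBs at or below the 99th percentile of silent gene families, as for Lama1 and Plat, bound how low those genes can be read. No group had the 4 libraries needed to look for a library that stands apart.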

How the results depend on the processing

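The EB result kept its direction in every pair of gene and alternative run, and its call in 98, the other 10 being of Nid1 and Plat. Without 1 library, called genes numbered 7 to 9 for EBs, 1 to 2 for ESCs, 7 to 8 for EB minus ESC in WT, 1 to 5 in KO (the 5 without the KO ESC library at 0 or 8 h include Plat as higher and lack Lamb1), 6 to 8 for the difference of these changes, 0 to 0 for slope differences in EBs and in ESCs, and 0 to 1 for slopes. In ESCs 1 gene was called in place of 2 under median ratios, no filter, no variance trend and additive time, as Col4a2 dropped out. For EB minus ESC in KO, 1 was called with equal totals, 1 with median ratios and 0 without the variance trend. Median ratios gave 1 called slope. The summed share left at 8 h was 183% (equal totals) and 175% (median ratios) in WT EBs against 81.0%, 158% against 118% in WT ESCs and 125% against 101% in KO EBs (median ratios). The cause was not tested. No called direction was reversed. Over all entries, calls ranged from 251 to 1185 (EBs; 1171 as reported), 717 to 2016 (ESCs; 1797), 2012 to 4898 (EB minus ESC in WT; 4145), 111 to 3459 (in KO; 3066), 63 to 443 (the difference of changes; 363), 0 to 443 (slope differences in EBs; 151), 0 to 10 (in ESCs; 5) and 623 to 4575 (slopes in 4 conditions; 4114). No paired analysis was possible because each group has 1 library and the labels carry no replicate numbers. Counts limit the precision of low levels: Plat had 0 to 1.62 inferred reads in ESCs and 3.96 to 6.44 in KO EBs, Pth1r 0.88 to 2 in WT ESCs, Col4a2 1.42 to 6.64 in WT ESCs and Lama1 4.5 to 5.5 in KO EBs.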
